A study of Pimephales promelas with 139 samples.

Results

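The transcripts described here stood off the control level in the same direction at every concentration of a synthetic estrogen, with little or no rank correlation with concentration among exposed larvae. They were chosen by measured values in experiments 1 and 2 of a fathead minnow (Pimephales promelas) series: an average of 1 CPM or more (CPM, the count of a transcript per 1 M counts of its library, where M is mega), the same sign of the difference from control at all 5 concentrations, and an absolute Spearman rho of CPM with concentration under 0.1 among exposed larvae. Differences were taken between group means of log2(CPM + 1). Of 37085 transcripts in the table, 28403 met the level, 8758 of these had the same sign throughout, and 6252 of these were also flat. The members are the 100 of them whose smallest absolute difference was largest. The values of experiment 3 do not enter this rule, and the tests were made there, although the rule was written with earlier results of the whole series known. The rule does not ask for equal sizes: the differences of FMt005911 were 1.09, 0.25, 0.40, 0.67 and 0.82 in order of concentration.

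Whole single larvae of a small freshwater fish used in toxicity testing were sequenced for messenger RNA. Larvae were put into still water with ethinyl estradiol at 48 h after hatching and taken 48 h later, at 96 h. The groups are control larvae at 0 ng/L and larvae at 0.12, 1.2, 2.5, 5 and 10 ng/L, with no other agent or genotype in the labels. Experiments 1 and 2 gave 19 control larvae and, in order of concentration, 11, 20, 11, 11 and 19 exposed larvae to the choice. That count leaves out replicate 7 of the 2.5 ng/L group, in which 30768 transcripts had a read, against at least 35857 in each of the other 91 libraries. Experiment 3 holds 10 control larvae and 6, 10, 6, 6 and 9 exposed larvae, 37 in all. Its 47 libraries held 11.2 to 30.3 M counts, with a median of 23.7 M, and group medians between 22.2 and 24.3 M. Replicate 53 of the 1.2 ng/L group had the fewest transcripts with a read there, 34800 against a median of 36596.

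Ethinyl estradiol is the estrogen of many oral contraceptives and reaches rivers through treated sewage. In fish it enters cells and binds estrogen receptors, which act on DNA as transcription factors, and the textbook response is the liver's production of vitellogenin, the egg yolk precursor, which climbs with the dose. The transcripts selected here lack such a climb by the rule that chose them. The table names transcripts by identifier only and the files do not pair them with genes, so no function is given to any member, and no cell type marker was looked up. Identifiers stand below as labels under which a reader can find the data.

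Of the 100 members, 68 were higher and 32 lower in exposed larvae of experiments 1 and 2. These values chose the members and carry no test. In the chosen direction, the mean difference over the 5 concentrations ran from 0.21 to 1.08 on the log2(CPM + 1) scale, with a median of 0.34, and the median over all 28403 transcripts at that level, each in its own direction, was 0.05. Within these choosing values, 98 members had the chosen sign in experiment 1 alone and 99 in experiment 2 alone. Both experiments entered the choice, so these counts are no repeat of a result, and no share over all transcripts is given for them. The smallest of the 5 differences was 0.87 for the first member, FMt009977. At the border it was 0.179 for FMt028761 and 0.178 for FMt021419, ranks 99 and 100, and 0.178 and 0.175 for FMt028940 and FMt018541 just outside, so the list ends without a gap.

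In the larvae of experiment 3 the members kept their direction about as often as transcripts at large. By the mean difference over the 5 concentrations, 60 of 100 had the direction of experiments 1 and 2, and 40 had the other. Over all 28403 transcripts the share with the direction of experiments 1 and 2 was 60.9%, so the members' count lies near that share. The mix of directions differs, since 68 of the 100 members and 40.7% of all transcripts had been higher. The median difference in the chosen direction was 0.09, down from 0.34, with single members from -0.69 to 0.92, and the median over all transcripts was 0.04. At all 5 concentrations at once 26 members kept their direction, beside 20.8% of all transcripts, and 11 had the opposite direction throughout. There were 10 members of the 100 that showed, in the chosen direction, a difference at least as large as the one they were chosen for. For the counts of 11 and 10 no share over all transcripts is given, so neither can be called high or low.

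**Figure D1:**
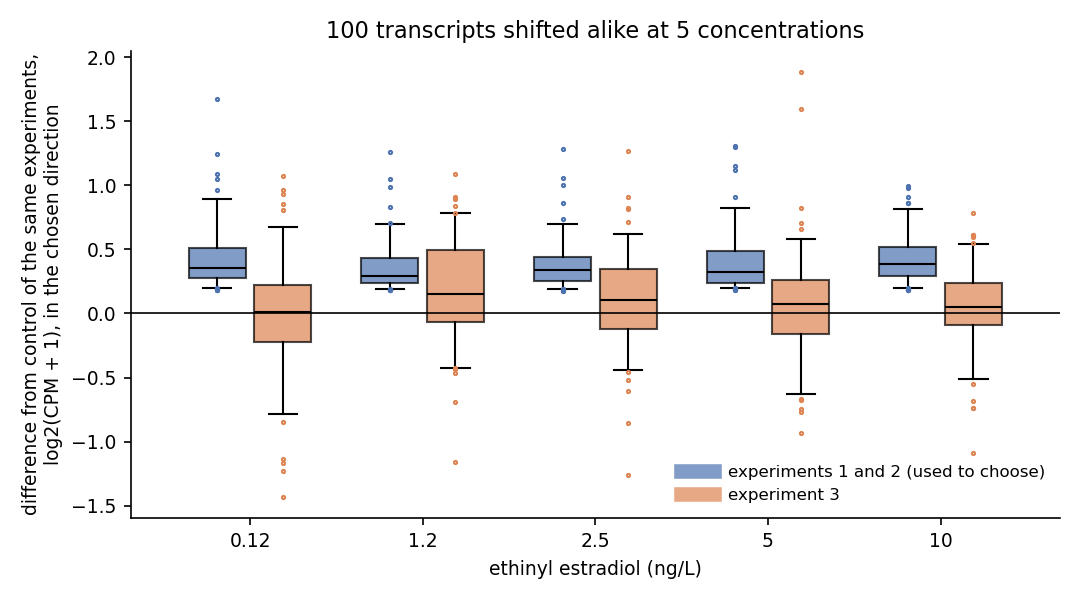
Difference from the control mean of the same experiments (log2(CPM + 1), turned so that the chosen direction is positive) at each concentration (ng/L), for the 100 members, in experiments 1 and 2 and in experiment 3. Boxes span the quartiles around the median and whiskers the 5th to 95th percentile; every value used for the choice lies above 0, and the boxes of experiment 3 reach below 0 at each concentration.

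Split by direction, the members compare with the rest as follows. Of the 68 higher ones 41 were higher again in experiment 3, beside 48.4% of all transcripts that had been higher, and of the 32 lower ones 19 were lower again, beside 69.4%. On this scale most transcripts were slightly lower in exposed larvae: 37.8% of all were higher in experiment 3 and 40.7% in experiments 1 and 2. In edgeR, which scales by TMM and fits counts, the median change over all transcripts in experiment 3 was 0.003. On the log2(CPM + 1) scale it was -0.04. By edgeR 64 of the 99 members tested kept their direction, beside 59.0% of all transcripts. The chosen direction was still the one on the log2(CPM + 1) scale, and whether scaling or fit made the difference was not tested. The split was then 45 of 68 higher members, beside 62.01%, and 19 of 31 lower members, beside 56.96%.

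**Figure D2:**
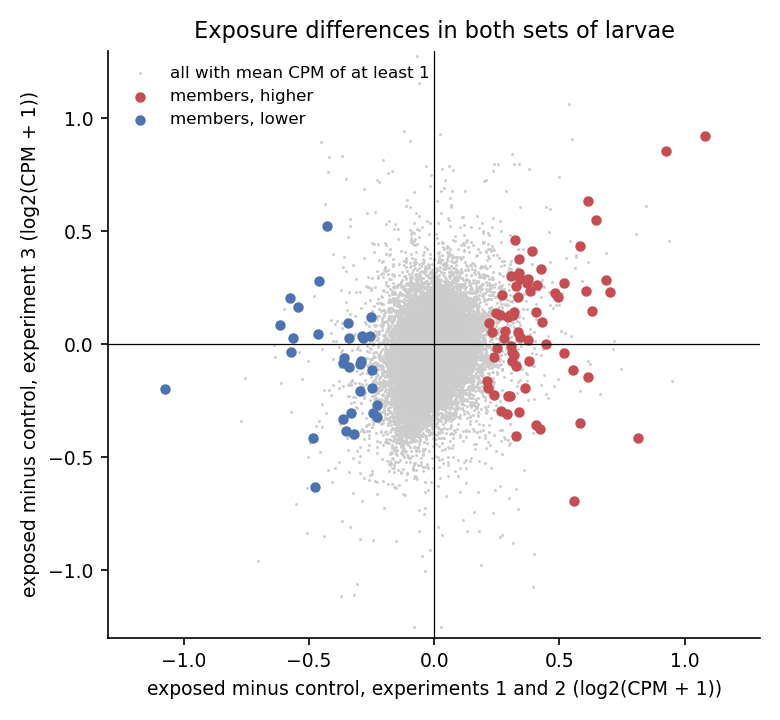
Mean difference between exposed and control larvae in experiments 1 and 2 (x axis) and in experiment 3 (y axis), both in log2(CPM + 1), for all 28403 transcripts averaging 1 CPM or more (grey; 9 lie outside the drawn range) and the 100 members. The members leave a gap around 0 on the x axis, which the choice made, and lie on both sides of 0 on the y axis.

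No member passed the test of exposure in experiment 3. By edgeR's quasi-likelihood test of the mean of the 5 exposed groups against control, with Benjamini-Hochberg adjustment over 35099 transcripts, the smallest adjusted p of a member was 0.67, and 0 of 99 were called, beside 0.0142% of all transcripts. DESeq2 and limma-voom also called 0. An unadjusted p under 0.05 was reached by 14 members, beside 7.11% of all transcripts tested; 12 of the 14 had the chosen direction, beside 5.06% of the transcripts at the chosen level. With DESeq2 the count was 17, beside 7.73% of all, and with limma-voom 11, beside 7.61%. With title numbers 52 to 63 alone (higher numbers occur only in the control, 1.2 and 10 ng/L groups) it was 7, beside 3.07% of all. Of these 7, 4 had the chosen direction, for which no share over all transcripts is given in that setting. The 5 transcripts called in this contrast, named here after their values were seen, are no members: FMt030406, FMt030407 and FMt030408 were higher, with a rho of 0.92 or more with concentration in experiments 1 and 2, and FMt008652 and FMt033806 were lower. Each larva is a bulk sample, in which fewer cells of a type and less RNA per cell cannot be told apart. Vessel and parentage are not given in the labels, and each larva was treated as separate, so a p-value reflects the variation from larva to larva, which may be technical.

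The 6 members with the smallest p in that contrast show how much the groups overlap. FMt005911, at rank 35, had 3.35 to 7.56 CPM in the 10 controls of experiment 3, with a median of 4.96, and 3.05 to 36.1 CPM in the 37 exposed larvae, with a median of 7.34. In order of concentration its group medians were 8.05, 8.001, 7.13, 9.30 and 5.34 CPM, all above the control median, and 18 of 37 exposed larvae lay above the highest control. Its difference in the fit was 0.79 ± 0.26 (SE, log2; edgeR p = 0.0038, adjusted p = 0.67). FMt005912, the next identifier, ran with it, from a median of 2.80 CPM in controls to 3.70 CPM in exposed larvae, and 33 of 37 exposed larvae lay above the control median. Its difference was 0.72 ± 0.24 (SE, log2). Within groups the log2 levels of these neighbours had a correlation of 0.85 over the 47 larvae, and whether they share reads was not tested, so they are not counted as 2 separate results.

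FMt020134, at rank 5, had 1.07 to 5.11 CPM in controls of experiment 3, with a median of 3.13, and 0.501 to 21.7 CPM in exposed larvae, with a median of 4.56. The groups differed most at the upper end: 17 of 37 exposed larvae exceeded every control, 3 lay under every control, and all 5 exposed groups contained larvae above the controls. Its difference was 1.12 ± 0.47 (SE, log2; edgeR adjusted p = 0.695). FMt036129, at rank 79, had 9.60 to 19.2 CPM in controls around a median of 13.4, and 9.06 to 42.6 CPM in exposed larvae around 15.6. All 22 larvae of the 3 middle concentrations lay above that median, against 2 of 6 in the lowest and 6 of 9 in the highest concentration group. Its difference was 0.34 ± 0.14 (SE, log2; edgeR adjusted p = 0.695), and the group medians, from 12.7 CPM at 0.12 ng/L to 18.4 CPM at 2.5 ng/L, were not alike.

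FMt026948, at rank 38, had 0.505 to 1.61 CPM in controls and 0.49 to 5.30 CPM in exposed larvae, with medians of 1.14 and 1.47. Its exposed larvae above the highest control were 16 of 37, and 11 of these 16 were in the groups at 1.2 and 10 ng/L. FMt030638, at rank 36, was the single lower member among the 6, with 0.595 to 9.37 CPM in controls, a median of 1.64, and 0.116 to 5.58 CPM in exposed larvae, a median of 1.20. Of the exposed larvae 7 of 37 were above the control median and 4 lay under the lowest control, all in the 1.2 and 2.5 ng/L groups. Its difference was -0.85 ± 0.32 (SE, log2; edgeR adjusted p = 0.695).

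Several of the first ranks are transcripts with a high level in some larvae and next to none in others. FMt009977, the first, had either under 2.5 CPM or more than 10 CPM in all but 2 of the 91 larvae of experiments 1 and 2. There, 2 of 19 controls and 22 of 72 exposed larvae had at least 10 CPM. In experiment 3 it was 1 of 10 controls and 15 of 37 exposed larvae, with 2, 4, 2, 4 and 3 such larvae in the groups of 6, 10, 6, 6 and 9. The group medians of experiment 3 were 1.23 CPM in controls, then 4.24, 0.754, 1.06, 28.5 and 0.144 CPM. Its fitted difference was 1.52 ± 1.09 (SE, log2; edgeR adjusted p = 0.725), and every group holds both kinds of larva.

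FMt036284, at rank 3, repeated FMt009977 nearly larva for larva, with a correlation within groups of 0.987 in experiment 3 and 0.996 in experiments 1 and 2. It reached 10 CPM in 1 of 10 controls and 14 of 37 exposed larvae of experiment 3. Ranks 1 and 3 are thus 1 pattern counted under 2 identifiers, which are not neighbours in number. FMt043989, at rank 2 and lower when chosen, is another transcript of this kind. At least 10 CPM was found in 13 of 19 controls and 36 of 72 exposed larvae of experiments 1 and 2. In experiment 3 it was 2 of 10 controls and 7 of 37 exposed larvae, of which 4 of 10 were in the 1.2 ng/L group, 2 of 6 in the 5 ng/L group, 1 of 9 in the 10 ng/L group and 0 in the other two. The share among controls was thus lower than in the larvae that chose it. The fitted differences of the single concentrations went opposite ways, at -3.96, 1.17, -4.53, 0.57 and -1.57 (log2) in order. Their mean was -1.66 ± 0.84 (SE, log2; edgeR adjusted p = 0.695), while the medians were 0.926 CPM in controls and 1.01 CPM in exposed larvae.

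**Figure D3:**
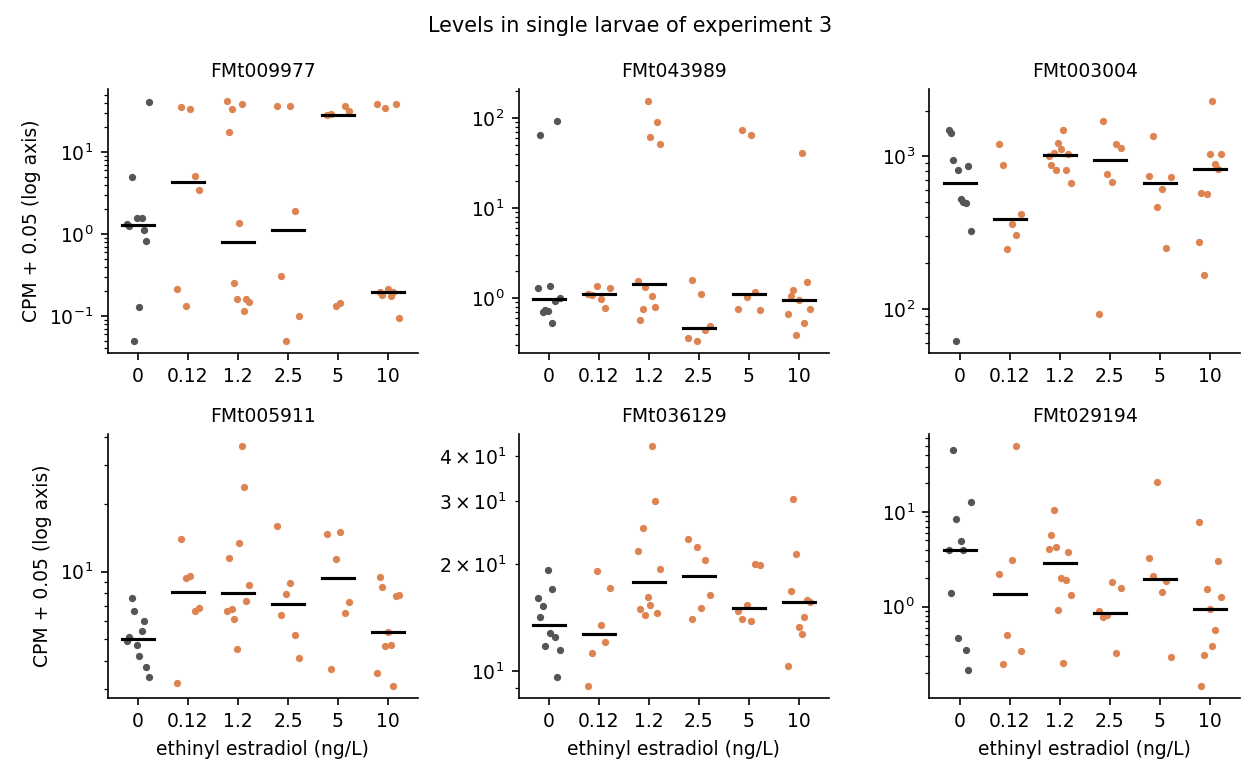
Levels in each larva of experiment 3 for 6 members, as CPM + 0.05 on a log axis, by concentration (ng/L; control in grey), with a line at the group median. FMt009977 and FMt043989 fall into separate high and low larvae in most groups. FMt003004, FMt005911, FMt036129 and FMt029194 spread more evenly, with single larvae apart in some groups of FMt003004 and FMt029194. Exposed larvae overlap the controls in all 6 panels.

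Other leading members have a more even range of levels, from which single larvae can stand apart. FMt003004, at rank 4, is abundant, with 62.04 to 1498 CPM in controls of experiment 3 and a median of 669, and 92.2 to 2312 CPM in exposed larvae and a median of 818. In order of concentration the group medians were 391, 1018, 950, 675 and 831 CPM. The lowest concentration lay under the control median and the others above it, whereas in experiments 1 and 2 the differences at all 5 had been between 0.53 and 0.91. Its fitted difference was 0.15 ± 0.34 (SE, log2), and it was -0.24 with title numbers 52 to 63 alone. Its neighbour FMt003005, at rank 12, went from 225 CPM in controls to 299 CPM in exposed larvae by median, a difference of 0.26 ± 0.23 (SE, log2).

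Of the other members among the first 12, FMt025820, FMt041668 and FMt009360 had differences in the chosen direction, of 0.40 ± 0.17, 0.36 ± 0.27 and 0.27 ± 0.23 (SE, log2). In each of these 3 the 1.2 ng/L group had the highest median of experiment 3, at 42.7, 53.6 and 12.2 CPM against control medians of 33.2, 25.6 and 9.28 CPM. FMt019321 was at 0.34 ± 0.38, with medians of 10.8 CPM in controls and 10.6 CPM in exposed larvae. FMt017676 kept its direction, at -0.39 ± 0.29 (SE, log2), and 8 of 37 exposed larvae lay above its control median of 8.36 CPM. FMt026576, chosen as lower, had a fitted difference of 1.44 ± 0.96 upward, while its medians were 1.77 CPM in controls and 1.18 CPM in exposed larvae. A single larva, replicate 57 at 10 ng/L, held 656 CPM of it, and limma-voom gave a difference of -0.20.

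The remaining neighbouring pairs, included by their consecutive identifiers, did not hold their direction beyond the spread. FMt023008, at rank 94, had 11.0 to 56.7 CPM in controls of experiment 3, with a median of 17.1, and 8.46 to 75.0 CPM in exposed larvae, with a median of 17.3. FMt023009 had medians of 13.5 CPM in controls and 12.6 CPM in exposed larvae. Their fitted differences were -0.02 ± 0.28 and 0.18 ± 0.28 (SE, log2), with the controls inside the range of the exposed larvae for FMt023008. FMt046387 and FMt046388, lower when chosen, had medians of 2.44 and 42.2 CPM in controls and of 2.81 and 53.3 CPM in exposed larvae. Their fitted differences were 0.08 ± 0.28 and -0.11 ± 0.25 (SE, log2). At the border, FMt028761 was at 0.31 ± 0.32 and FMt021419, against its direction, at -0.32 ± 0.19, while FMt028940 and FMt018541 just outside were at 0.41 ± 0.25 and 0.28 ± 0.23.

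Some members went the other way in experiment 3. Against their direction, the log2(CPM + 1) difference was largest for FMt029194, FMt047568 and FMt007228, at -0.69, 0.52 and -0.41. FMt029194, at rank 23 and higher when chosen, had 0.163 to 45.4 CPM in controls with a median of 3.93, and 0.096 to 49.2 CPM in exposed larvae with a median of 1.47. All 5 exposed groups had medians below the control median, and 7 of 37 exposed larvae were above it, where 50 of 72 had been above the control median in experiments 1 and 2. Its difference was -1.43 ± 0.63 (SE, log2; edgeR p = 0.0285, adjusted p = 0.695). FMt007228, at rank 15, was at -1.65 ± 1.02 (SE, log2); it too is either high or low, with at least 10 CPM in 3 of 10 controls and 9 of 37 exposed larvae, and its difference had been -0.20 in experiment 1 and 1.81 in experiment 2 (log2(CPM + 1)). FMt047568, at rank 64 and lower when chosen, was at 0.51 ± 0.54, and had already been lower by 1.06 in experiment 1 and higher by 0.25 in experiment 2 on the log2(CPM + 1) scale.

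Each concentration was also set against the 10 controls of experiment 3, so that the 5 comparisons share them. No member was called in any, with smallest adjusted p of 1.00, 0.81, 0.252, 0.408 and 0.342 by edgeR in order of concentration; DESeq2 and limma-voom called 0 as well. All transcripts were called at rates of 0.0%, 0.00855%, 0.00855%, 0.0114% and 0.0171%. Without the library of 11.2 M counts, the shallowest of experiment 3, the calls at 2.5 ng/L numbered 60 against 3, and 0 were members. By sign, 55, 60, 60, 59 and 60 of the 99 members had the chosen direction, beside 51.8%, 58.4%, 56.8%, 58.1% and 56.5% of all transcripts.

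Unadjusted p under 0.05 was reached at 0.12 ng/L by 10 members, beside 3.68% of all, and 5 of the 10 had the chosen direction, beside 1.98%. In the main fit, shares in the chosen direction are over the 28400 tested transcripts at the chosen level. Shares in either direction are over all 35099 tested. The 1.2 ng/L group gave 19 members, beside 3.05%, and 17 of these had the chosen direction, beside 2.08%. Of the 17, 4 lie in the first and 2 in the second block of co-varying members described below, and 11 outside both. Members that co-vary are not separate cases, so the 17 are fewer than 17 separate results. The counts were 13 (beside 15.6%), 9 (11.6%) and 6 (4.7%) for the 3 higher concentrations. Of these, 10, 6 and 3 had the chosen direction, beside 11.8%, 8.87% and 2.73%. The counts at 2.5 and 5 ng/L were thus below the rate of all transcripts and the others above it. The 17 at 1.2 ng/L were led by FMt005911 and FMt005912, at 1.31 ± 0.31 and 1.23 ± 0.29 (SE, log2; edgeR adjusted p = 0.81 for both). Leaving out replicate 53 of that group, the count of 19 became 16, beside 3.07% of all in either direction. Of the 16, 15 had the chosen direction. With title numbers 52 to 63 alone the count became 8, beside 2.73% of all in either direction, and all 8 had the chosen direction. For these settings the share of all transcripts in the chosen direction is not given.

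The flat course over concentrations was examined in the 37 exposed larvae of experiment 3 without controls. No member had a slope on log2 concentration that was called by edgeR (0 of 99, smallest adjusted p = 0.901), beside 0.0116% of all transcripts; DESeq2 and limma-voom called 0 members, and 7 had an unadjusted p under 0.05 by edgeR, beside 4.43%. The Spearman rho of CPM with concentration ran from -0.34 to 0.32 over the members. It was under 0.1 in absolute value for 52 of 100, beside 38.8% of all transcripts at the chosen level, and the median absolute value was 0.10 against 0.13. In experiments 1 and 2, 66.6% of all transcripts had met that limit, with 72 exposed larvae.

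The members had a wide spread between larvae of the same group, as did the first 100 transcripts chosen alike but with a slope (median SD 0.48). In experiment 3 the SD of log2(CPM + 1) within groups had a median of 0.59 over the members, from 0.25 to 2.29, and of 0.30 over all 28403 transcripts. The SD of 97 members lay above the median of all, and 93.2% of all transcripts had an SD under the members' median. Their mean CPM in experiments 1 and 2 had a median of 9.04, from 1.01 to 2064, against 9.58 over all. Set against this spread, the median difference of the members in experiment 3 in the chosen direction was 0.14 SD. In 8 members some controls of experiment 3 had under 0.1 CPM and others at least 1 CPM, beside 0.796% of all transcripts.

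**Figure D4:**
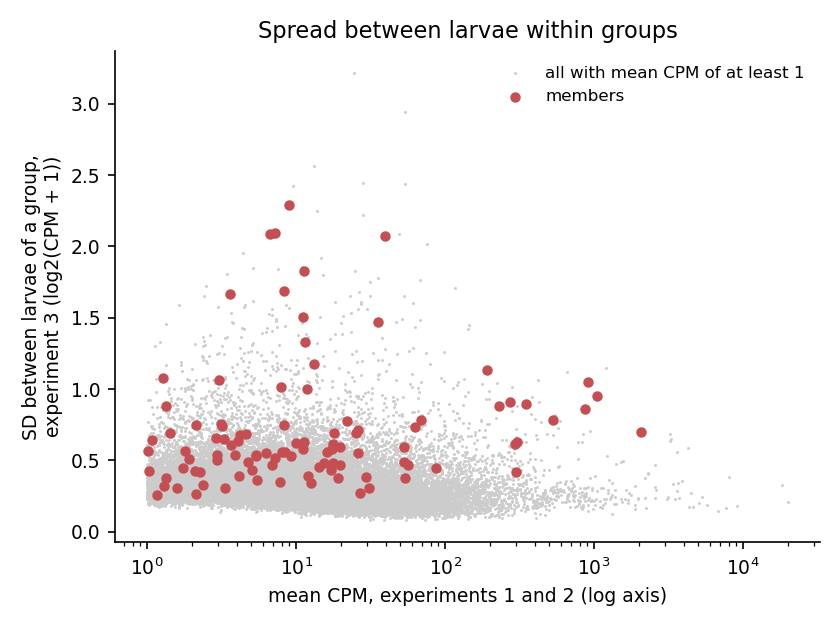
SD of log2(CPM + 1) between larvae of the same group in experiment 3 against mean CPM in experiments 1 and 2 (log axis), for all 28403 transcripts (grey) and the 100 members. The members have abundances like the rest and lie in the upper part of the cloud, with 97 above the median SD of all transcripts.

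FMt016494, at rank 30 and lower when chosen, is the 1 member that did not pass the low-count filter of experiment 3. It had at least 10 CPM in 2 of 10 controls and 2 of 37 exposed larvae, both at 10 ng/L, and at most 0.196 CPM in all larvae at 0.12 to 5 ng/L, where most had no read. Without the filter it was called lower in exposed larvae (edgeR adjusted p = 0.00657), and it was also called with a filter on mean CPM (adjusted p = 0.00423); its slope over exposed larvae was called upward without the filter (adjusted p = 0.00131). These calls rest on 4 larvae among 47, and each adjusted p comes from a fit that the reported tests did not use. In experiments 1 and 2 those with at least 10 CPM were 4 of 19 controls and 2 of 72 exposed larvae.

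Members that move together within groups make up part of the list, so the 100 are not 100 separate observations. After removing group means, average linkage at a correlation distance of 0.5 left 2 blocks with 10 or more members in experiment 3. The cut gave 46 groups in all, counting 29 members that stood alone. Some members outside the 2 blocks thus co-vary in smaller groups and are not separate observations either. The first block holds 14 members and the second 13, all of them higher in experiments 1 and 2. Their median pairwise correlations were 0.58 and 0.84 over the 47 larvae of experiment 3, which formed the blocks. Over the 91 larvae of experiments 1 and 2 they were 0.68 and 0.75. Those larvae did not form the blocks but chose the members, so their correlations are no independent check. Over all pairs of members the median was 0.01, against 0.04 over all pairs of the 28403 transcripts, and 2.10% of member pairs exceeded 0.7, against 1.97% of all pairs. These shares lie close together. The 4 pairs of consecutive identifiers in the list had correlations of 0.85 to 0.93 in experiment 3.

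The second block is the abundant one. It contains FMt003004, FMt003005 and FMt028761, means from 2.93 to 2064 CPM, and 9 of its 13 members averaged over 200 CPM. By fitted difference 12 of the 13 kept their direction in experiment 3, beside 62.01% of all transcripts that had been higher. The differences ran from -0.26 to 0.49 with a median of 0.26 on the log2 scale. In the exposure contrast 0 of the 13 had an unadjusted edgeR p under 0.05, beside 7.11% of all transcripts. These members co-vary in the same larvae and are not 13 separate cases. The block's mean level, relative to the control mean, ran from -1.48 to 0.77 in the 10 controls, 0.17 to 1.13 in the 10 larvae at 1.2 ng/L and -1.51 to 1.51 in the 9 at 10 ng/L (log2(CPM + 1)). All larvae at 1.2 ng/L thus lay above the control mean and 3 above every control, while the median of the lowest concentration was -0.38. At 2.5 ng/L the median was 0.67, with 3 of 6 larvae above every control and 1, at -1.91, below every control. The SD was 0.32 at 1.2 ng/L and 0.72 in controls.

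The first block contains FMt025820, FMt041668 and FMt009360, with means from 2.88 to 298 CPM. Here 12 of 14 kept their direction, beside 62.01% of all transcripts that had been higher, with fitted differences of -0.10 to 0.50 and a median of 0.15 (log2). An unadjusted edgeR p under 0.05 was reached by 4, beside 7.11% of all transcripts. Members of a block co-vary, so neither count is one of separate cases. Its mean level ran from -0.41 to 0.87 in controls and from -0.36 to 0.77 at 1.2 ng/L, with medians of -0.10 and 0.27. A single exposed larva, at 0.12 ng/L, lay above every control. Of the 73 members outside both blocks 38 had the chosen direction in experiment 3 on the log2(CPM + 1) scale, beside 22 of the 27 inside them. The share was 60.9% over all transcripts and 48.4% over those that had been higher, as all members of the blocks had.

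**Figure D5:**
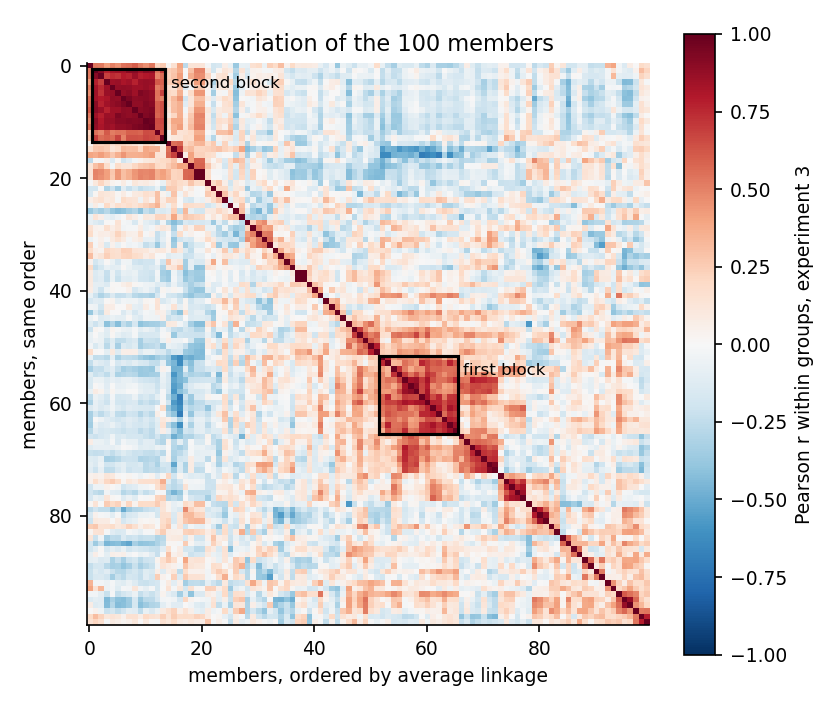
Pearson correlation of log2(CPM + 1) between the 100 members over the 47 larvae of experiment 3 after removing group means, ordered by average linkage. Squares mark the first block (14 members, median correlation 0.58) and the second block (13 members, 0.84). Smaller groups of co-varying members are not marked. Over all member pairs the 5th to 95th percentile ran from -0.32 to 0.51.

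The members were last set beside candidates further down the same ranking and beside transcripts with a slope. Among the 6252 flat candidates the share with the chosen direction in experiment 3 was 60.0% for the 100 members, 66.5% for the next 400, 70.7% for the next 1500 and 70.4% for the other 4252. The median difference in that direction was 0.09, 0.07, 0.07 and 0.07, and the median SD within groups fell from 0.59 to 0.41, 0.33 and 0.29 along the same order. Of the first 100 transcripts chosen in the same way but with an absolute rho of 0.1 or more, 71 kept their direction in experiment 3, with a median difference of 0.06, and 0 were called in the exposure contrast by edgeR, with an unadjusted p under 0.05 for 15% of them. Among the flat candidates such an unadjusted p was reached by 14.1%, 10.25%, 7.67% and 7.67% in the order above. These shares are descriptions and were not tested against each other. Those by direction are on the log2(CPM + 1) scale and are not split into higher and lower transcripts. On that scale 48.4% of all higher and 69.4% of all lower transcripts kept their direction. Of the 100 members 68 had been higher, so the mix of directions may differ between the sets compared.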

How the data were processed

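Per the labels, messenger RNA of 139 single whole larvae in 3 experiments was made into libraries from total RNA with a SENSE mRNA-Seq kit. What the authors deposited is a single table of whole-number counts for each transcript and library, with no normalization. Of the software behind it, the submitters' processing notes name edgeR 3.26.8, limma 3.40.6 and bcl2fastq 2.19.1. For the aligner, the counter and the build, the sources used here give no name. A row without an identifier, 0 to 13 reads a library, was left out. None of the identifiers matched the 64593 genes of the reference gene table (0 matches).

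Counts were scaled to CPM by each library's total. Members, tests and lists were chosen with earlier results of these data known. In experiment 3, edgeR 4.0.16 (TMM, filterByExpr with a minimum count of 10, robust quasi-likelihood test; R 4.3.3) was fitted to all transcripts of the 47 libraries with a term per group, and p-values were adjusted by Benjamini-Hochberg over all of them, with a threshold of 0.05. The contrasts were the mean of the 5 exposed groups against control and each concentration against control. The slope on log2 concentration came from a separate edgeR fit to the libraries of the 37 exposed larvae, in which 34586 transcripts were tested. Each SE of an edgeR difference was derived from the test, as the absolute log2 difference divided by the square root of the F statistic. DESeq2 1.42.0 and limma 3.58.1 were alternatives, beside other scalings, filters, samples and settings of the choice. No 2 of the 171 pairs of libraries compared within groups agree within sampling noise. Depth limits the precision of low members: 1 CPM is 23.7 reads in a library of median depth. Named transcripts are the first 12 ranks, the 6 members with the smallest p, neighbours by identifier, the border ranks and the 3 members furthest against their direction by the log2(CPM + 1) difference in experiment 3.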

Additional observations from a re-analysis of the deposited data

Results flagged for a closer look

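In 22 of the 156 groups examined (14.1%), each 1 named member in 1 group of experiment 3, a single larva lay far from the others. Its gap to the nearest larva exceeded Dixon's critical value. The nominal rate of about 1 in 20 holds for independent, normally distributed values. Several of these members are either high or low in a larva and some co-vary, so the 14.1% cannot be set against that rate. The values below are CPM of that larva. Among members that are either high or low in a larva, the highest was 40.1 for FMt009977 and 31.2 for FMt036284 in controls (the same larva, replicate 73), 40.4 for FMt043989 at 10 ng/L and 17.7 for FMt007228 at 5 ng/L. FMt026576 had a highest value of 19.95, 34.1 and 656 in the 1.2, 2.5 and 10 ng/L groups.

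Replicate 62 of the 0.12 ng/L group was the highest for FMt025820 (63.9), FMt023008 (75.0), FMt023009 (59.4) and FMt029194 (49.2). Replicate 62 of the 5 ng/L group was the highest for FMt025820 (77.0) and FMt041668 (68.03), and replicate 57 of that group for FMt030638 (5.58) and FMt023009 (45.7). FMt023009 was also set apart in a control (37.97) and in a larva of the 1.2 ng/L group (27.3), and FMt005912 in a control (4.22). The lowest larva stood apart for FMt003004 in controls (62.04) and at 2.5 ng/L (92.2), for FMt046388 at 1.2 ng/L (11.4) and for FMt047568 at 0.12 ng/L (4.05).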

How the results depend on the processing

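Of 260 alternative values of the exposure contrast for 26 named members, 253 kept the sign of the main edgeR fit of experiment 3 and 7 reversed it. That sign is not always the chosen direction: for example, for FMt029194, FMt007228, FMt021419, FMt047568, FMt026576 and FMt046387 the main fit went against it. Of these values 0 were called, with a smallest adjusted p of 0.378 (DESeq2). An unchanged sign did not mean a stable size. With limma-voom FMt043989 went from -1.66 to -0.24 and FMt007228 from -1.65 to -0.22. With DESeq2 FMt026576 went from 1.44 to 0.31. Others grew, such as FMt009977 from 1.52 to 3.32 with title numbers 52 to 63 alone. With title numbers 52 to 63 alone FMt003004 was at -0.24, FMt023009 at -0.0013, FMt046388 at 0.32, FMt028761 at -0.15 and FMt021419 at 0.0025; with limma-voom FMt026576 was at -0.20; the cause was not tested. Over all transcripts, the exposure contrast gave 5 calls, and 12 with DESeq2, 2 with limma-voom and 3 at an adjusted p under 0.01. DESeq2 gave 1, 17, 7 and 20 calls at 0.12, 2.5, 5 and 10 ng/L, against 0, 3, 4 and 6, and limma-voom 1 against 3 at 1.2 ng/L. Without the shallow library, calls at 2.5 ng/L numbered 60 against 3. Without replicate 53 of the 1.2 ng/L group they were 5, 0, 3, 4, 5, 6 and 4 over the 7 comparisons, an alternative chosen after seeing the data. A member, FMt016494, was called in 3 of 79 combinations of setting and comparison. It was not tested where it failed the low-count filter, as in the main fit. The 79 thus include combinations in which it could not be called.

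Same-numbered larvae of experiment 3 had correlations of -0.41 to 0.46 (97 pairs, median 0.01, 26 over 0.1), and the median for other numbers was -0.015. These correlations cannot tell whether equal numbers share a vessel or another condition, which the labels do not give. With the number as a replicate block the exposure contrast gave 5 calls, and FMt046388 was at 0.0049.

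Other settings of the choice, or of the larvae of experiment 3, shared 50 to 100 members with the list. They gave 56% to 67% with the chosen direction, beside 59.5% to 64.7% of all transcripts (67% beside 64.7% with the left-out library kept). At all 5 concentrations the share was 18% to 34%. For all transcripts that share is given for the main setting only, at 20.8%. Medians were 0.03 to 0.14 (0.03 to 0.05 over all). Title numbers 52 to 63 alone, which left the list unchanged, gave the 18% and the 0.03.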
